A study of Parasteatoda tepidariorum with 10 samples.

Results

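The regions described here are stretches of the *Parasteatoda tepidariorum* genome that had ATAC-seq peaks in wild-type embryos from stage 2 on but not among the strongest peaks at stage 1. Each of the 6 wild-type peak lists was cut to its 12494 peaks of highest signal, the length of the shortest list, and overlapping peaks were merged into 41314 regions. A region was a member when it had a peak in both stage-2 lists and in both stage-3 lists and in neither stage-1 list, which held for 469 regions (1.14% of all). Members were thus chosen by their wild-type signals, and everything given below on wild-type peaks within these lists is a description. The peak lists of the pRNAi embryos took no part in the choice.

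ATAC-seq uses the transposase Tn5 to insert sequencing adapters into DNA that is not wrapped around nucleosomes, and a peak marks a stretch where insertions pile up. Libraries came from whole embryos of the Osaka isolate of the house spider, in 5 groups of 2 libraries each. Wild-type embryos were sampled 9 h after the eggs were laid for stage 1, at 12 h for stage 2 and at 18 h for stage 3. The other groups were stage-3 embryos of the same age laid by mated females that had received repeated injections of *fuchi* or *Pt-hh* double-stranded RNA, a method called parental RNA interference (pRNAi). No group from females injected with a control double-stranded RNA was analysed here, and the lists do not show how far either transcript was reduced in the embryos sampled. A stage-1 or stage-2 library was made from the nuclei of 200 embryos and a stage-3 library from those of 40, so that stage and number of embryos cannot be told apart. The source names put replicate 1 of all 3 wild-type stages in line 39, replicate 2 of stages 2 and 3, both *fuchi* pRNAi libraries and *Pt-hh* pRNAi replicate 1 in line 40, *Pt-hh* pRNAi replicate 2 in line 39, and stage 1 replicate 2 under the name KK.

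In spiders, as in other arthropods, the first nuclei divide with little transcription of their own, and the embryo depends on maternal products until zygotic genes are switched on. Stage 1 covers these divisions, stage 2 is the blastoderm, and at stage 3 the spherical symmetry of the egg is lost as the germ disc begins to form around one pole. DNA that becomes accessible in this interval includes promoters and enhancers, short stretches to which transcription factors bind. *fuchi* encodes a GATA-like zinc finger transcription factor. *Pt-hh* encodes the Hedgehog protein of this spider, a secreted signal used in patterning the germ disc. In a library from whole embryos, a peak that weakens in all cells and a peak that is lost from some of them cannot be told apart.

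The deposited lists held between 10616 and 137892 peaks. Stage 1 replicate 2 stood apart with 137892 peaks, against 24066 peaks in stage 1 replicate 1, and the lowest signal inside the equal length was 530 there and 279 in replicate 1. Leaving out stage 1 replicate 2 from the rule gave 603 members, and leaving out stage 1 replicate 1 gave 1213. Read totals were not used here, so the depth behind each list is unknown. All positions are on scaffolds of the assembly Ptep_2.0, and the sequence and the gene annotation of that assembly were not used here.

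Of the 2567 regions with a peak in both stage-2 and both stage-3 lists, 469 (18.3%) had a peak in neither stage-1 list, 747 (29.1%) in stage 1 replicate 1 alone, 135 (5.26%) in replicate 2 alone and 1216 (47.4%) in both. The last of these sets, with a peak in all 6 wild-type lists, is called here the regions with peaks at all 3 stages. A further 1727 regions had a peak in both stage-3 lists and in none of the 4 lists of stages 1 and 2, and are called the regions with peaks only at stage 3. Together with other combinations these make 7915 regions with peaks in both wild-type stage-3 lists, which served as the background for the pRNAi lists.

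The 469 regions lay on 227 scaffolds, 125 of which held a single member. The scaffold NW_018371019.1 held the most, 12 members. Their median width was 687 bp (quartiles 540 and 915 bp, range 190 to 5421 bp), between the 589 bp of the regions with peaks only at stage 3 and the 960 bp of the regions with peaks at all 3 stages. Within 10 kb of a member there was another member for 22 of them (4.69%) and a region with peaks at all 3 stages for 33 (7.04%). The corresponding share beside regions with peaks at all 3 stages was 8.02% for all 7915 wild-type stage-3 regions described above, 4.17% for the regions with peaks only at stage 3 and 21.1% for the regions with peaks at all 3 stages themselves.

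The summits, the points of highest significance inside the peaks, lay closer together among the stage-3 libraries compared than between the stage-2 replicates or between the stages. In the stage-3 replicates they lay a median of 32 bp apart, and 365 of the 469 members (77.8%) had them within 100 bp. The stage-2 replicates were looser, with a median of 80 bp and 273 members (58.2%) within 100 bp. Between stage 2 and stage 3 the median distance was 63 bp in line 39 and 68 bp in line 40, so that it was no larger between the stages than between the stage-2 replicates. For members with a peak after pRNAi, the summit lay a median of 33 and 36 bp from that of wild-type stage 3 replicate 1 in the *fuchi* pRNAi replicates, and 21 and 22 bp from it in the *Pt-hh* pRNAi replicates.

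Signals are not scaled between libraries, so each peak is given by its percentile, its rank by signal within its own list of equal length, where 100 is the strongest peak. Wild-type lists were cut to 12494 peaks and pRNAi lists to 10616, so that wild-type and pRNAi percentiles are not on one scale. Members were peaks of middle rank. Their median percentile was 65.7 in stage 2 replicate 1 and 51.4 in stage 2 replicate 2. At stage 3 it was 69.2 in replicate 1 and 66.4 in replicate 2. The regions with peaks at all 3 stages ranked far higher, with medians of 91.1 and 93.0 at stage 2 and 86.0 and 90.7 at stage 3, while the regions with peaks only at stage 3 had medians of 46.2 and 41.5 there. Members thus lay between these sets at stage 3.

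**Figure D1:**
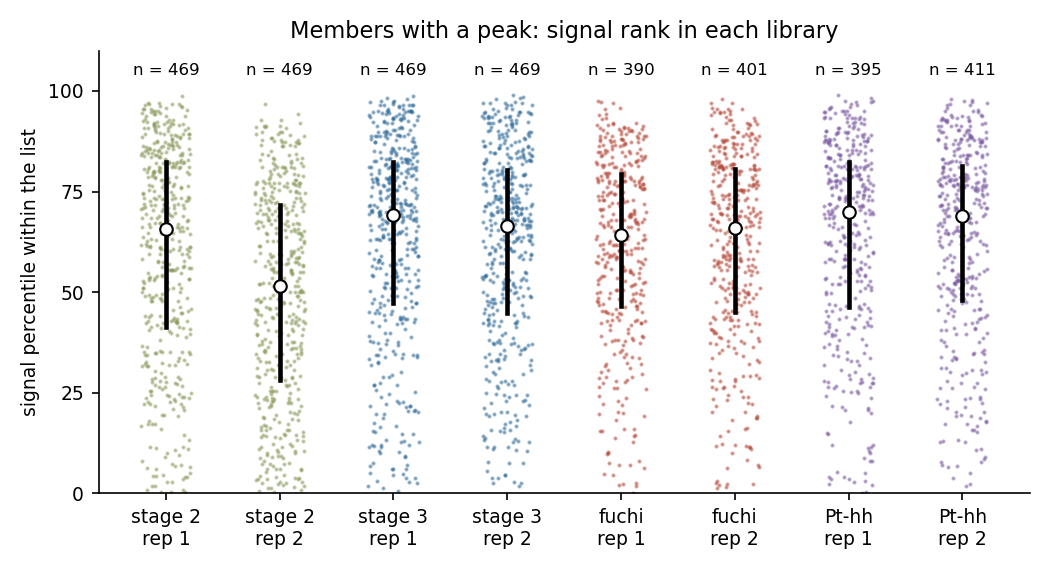
Signal percentile of every member with a peak (points) in 8 libraries, with the median (open circle) and the range between the quartiles (bar). The wild-type lists hold 12494 peaks each and the pRNAi lists 10616, n is the number of the 469 members with a peak, and the stage-2 replicate 2 median of 51.4 is the lowest of the 8.

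The rank of a member at stage 2 was poorly shared by the replicates. Across the 469 members, Spearman's rho between the stage-2 replicates was 0.03, against 0.58 between the stage-3 replicates, and the median absolute difference between replicates was 25.7 percentile points at stage 2 and 12.6 at stage 3. For the regions with peaks at all 3 stages the same rho was 0.53 at stage 2 and 0.77 at stage 3. These correlations are across regions of the same libraries, which are not independent replicates. A stage-2 rank given below is therefore uncertain by more than a stage-3 rank.

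From stage 2 to stage 3 the mean percentile of the members went from a median of 55.1 to a median of 65.7, and the median change per member was 8.5 points (quartiles −10.6 and 26.4), with 296 of 469 members above 0. The change was 1.66 points in line 39 (replicate 1 of both stages) and 11.6 points in line 40 (replicate 2 of both stages), an SD of 7.05 over the pair. Each line had a single library per stage here, so line and library cannot be told apart. The median change was 0.006 without stage 2 replicate 2 and −1.21 with line 39 as the only wild-type source. With all deposited peaks it was −4.42, but there the stage-2 lists held 51893 and 23985 peaks and the stage-3 lists 19812 and 12494. Those percentiles are therefore not on the scale of the equal lists. Regions with peaks at all 3 stages had a median change of −1.12 points. The direction of the members' median change was thus not shared by these settings.

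Counting members by their replicates, both stage-3 percentiles lay above both stage-2 percentiles in 147 (31.3%), both lay below in 66 (14.1%), and the replicates overlapped in 256 (54.6%). Over all 2567 regions with peaks at both stages, the corresponding shares were 22.8% above and 22% below. Regions with peaks at all 3 stages had the opposite balance, with 193 (15.9%) above and 364 (29.9%) below. Since the rule used these percentiles, nothing is read from the counts beyond the description. When members were banded by their mean stage-2 percentile, rises were most frequent in the lowest band and falls in the highest. The changes were counted from the same stage-2 values, so the banding itself favours this pattern and nothing is read from it. Of the 23 members below the 25th percentile at stage 2, 18 were higher at stage 3 and 0 lower, and of the 74 members above the 75th percentile, 9 were higher and 29 lower. The median stage-3 percentile still followed the stage-2 band, with 55.3, 61.5, 68.1 and 72.6 from the lowest to the highest band.

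**Figure D2:**
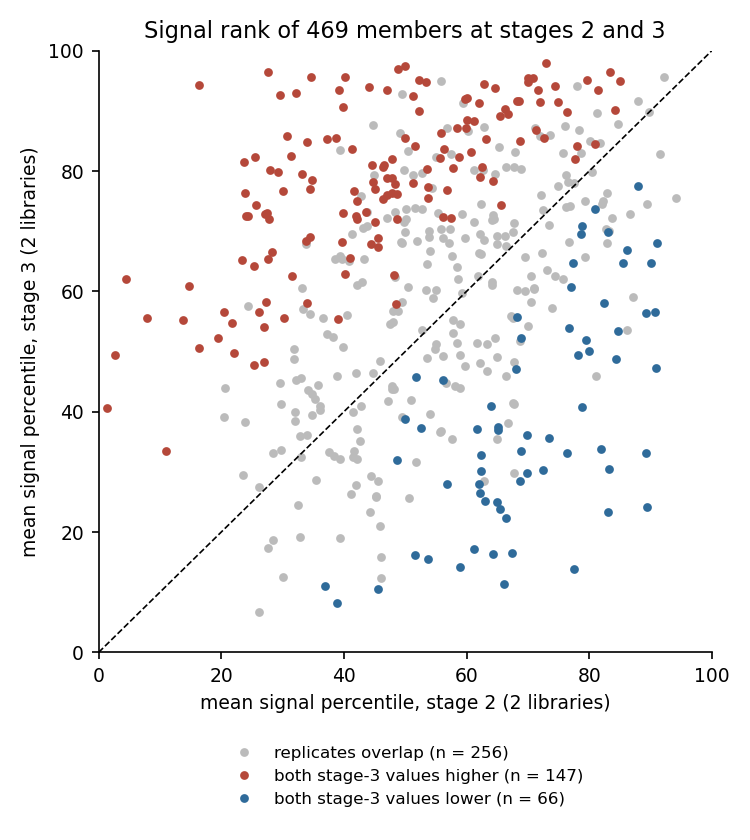
Mean signal percentile of each of the 469 members at stage 2 (x axis) and stage 3 (y axis), each over 2 libraries, with the dashed line marking equal rank. Members with both stage-3 values above both stage-2 values (147) fill the upper left, those with both below (66) the lower right, and the 256 in grey had overlapping replicates.

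The 6 members of highest mean percentile over the stage-2 and stage-3 lists had a value of 77.4 or higher in each of these lists. The first, at NW_018377500.1:5380514-5381139, had percentiles of 96.5 and 87.9 at stage 2 and of 94.7 and 96.5 at stage 3. The second, at NW_018369827.1:1188990-1189819, had 82.1 and 88.2 at stage 2 and 94.8 and 95 at stage 3, so that its stage-3 values were both higher. Among the rest of the 6, the member at NW_018371019.1:15072549-15073244 stood out after pRNAi. Its wild-type percentiles were 89.5 and 89.9 at stage 2 and 97.3 and 82.5 at stage 3, and it had 59.0 and 16.2 in the *fuchi* pRNAi lists but 85.8 and 89.8 in the *Pt-hh* pRNAi lists. The groups of this member did not overlap after pRNAi. In the other 5 every pRNAi percentile was 88.8 or higher.

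The largest rise was at NW_018376604.1:728620-729479, an 860-bp region with percentiles of 22.1 and 10.6 at stage 2 and of 96.5 and 92.1 at stage 3. Its percentiles within the pRNAi lists were also high, with 88.8 and 88.5 for *fuchi* and 92.3 and 96.9 for *Pt-hh*. The widest member, 5421 bp at NW_018369407.1:355512-360932, came second, with 7.34 and 48.0 at stage 2 and 93.8 and 99.1 at stage 3. Its *fuchi* pRNAi values were far apart, 59.4 and 97.0, and those of *Pt-hh* pRNAi were 97.5 and 89.7. The rises at NW_018374360.1:139126-140301 (63 points) and NW_018378538.1:2895973-2898226 (61 points) were followed by pRNAi percentiles of 75.2 or higher in every list.

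The largest fall was at NW_018381812.1:481513-482272, with percentiles of 92.6 and 86.2 at stage 2 and of 12.6 and 35.8 at stage 3. After pRNAi it had a peak in 1 list of each group, with 51.3 in *fuchi* replicate 2 and 69.9 in *Pt-hh* replicate 1. The members at NW_018381697.1:1938349-1938992 and NW_018369251.1:124450-124939 fell by 63.7 and 59.8 points, and each had a peak in only some of the pRNAi lists. The member at NW_018382568.1:3538313-3539036 fell from 92.2 and 86.4 to 6.12 and 60.1. It had 22.9 and 27.9 in the *fuchi* pRNAi lists and no peak in either *Pt-hh* pRNAi list of equal length, although both full *Pt-hh* lists held a weaker peak there.

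The absence at stage 1 was partly a matter of rank. When the full stage-1 lists were searched, 139 of the 469 members (29.6%, Wilson 95% interval 25.7 to 33.9) overlapped a weaker peak of stage 1 replicate 1 and 261 (55.7%, 51.1 to 60.1) one of replicate 2. Both lists had a weaker peak at 80 members (17.1%), and neither had one at 149 (31.8%, 27.7 to 36.1). The intervals cover only the counting of regions, not the spread between embryos. Of the 1727 regions with peaks only at stage 3, 280 (16.2%) overlapped a weaker peak of replicate 1, 718 (41.6%) one of replicate 2, and 854 (49.4%) neither. Members had the higher share of weak stage-1 peaks in both libraries.

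**Figure D3:**
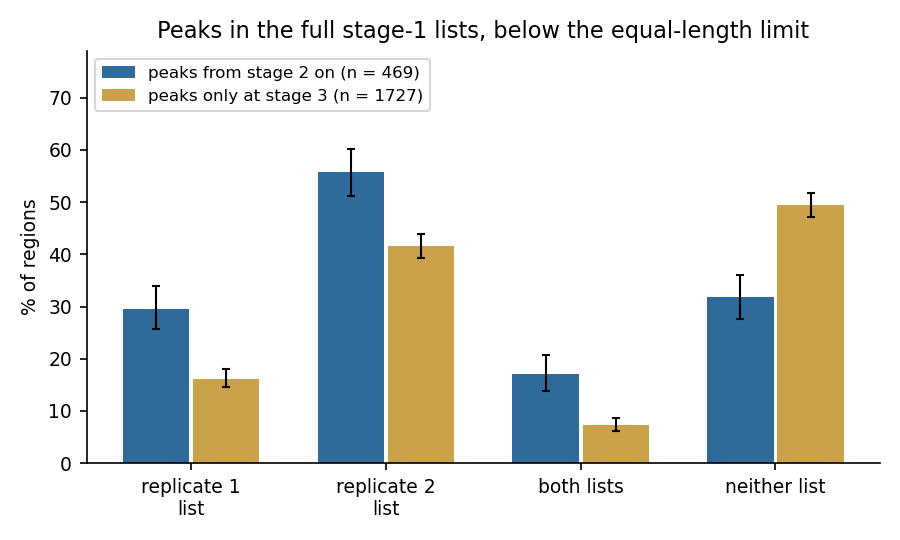
Percentage of regions that overlapped a peak below the equal-length limit in the full stage-1 lists, for the 469 members and the 1727 regions with peaks only at stage 3, with Wilson 95% intervals. Members were higher in replicate 1 (29.6% against 16.2%) and replicate 2 (55.7% against 41.6%), and fewer of them had no stage-1 peak at all (31.8% against 49.4%).

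The stage-1 lists reached to different depths. In replicate 1 the weaker peaks ranked from 12591 to 23743 of 24066, with a median rank of 17100. In replicate 2 they ranked from 12770 to 137676 of 137892, with a median rank of 43900, and 65 of the 261 lay within the first 2 times 12494 peaks. The full list of replicate 2 covered 53.7 Mb of the genome and that of replicate 1 covered 13.3 Mb, and the part that this covered length has in the number of overlaps was not tested. Weaker peaks at members had a median signal of 239 in replicate 1, where the limit was 279, and of 343 in replicate 2, where the limit was 530.

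Regions just inside and just outside the limit had nearly the same signals. The member with the strongest weaker peak in stage 1 replicate 1, at NW_018382618.1:870546-870934, had a signal of 277 at rank 12591. A region kept out of the set by the weakest peak inside the limit, at NW_018378875.1:8736112-8737110, had 279 at rank 12490. In replicate 2 the corresponding signals were 526 at NW_018380997.1:3452866-3453636 and 535 at NW_018383888.1:1104125-1104803. The weakest peaks that admitted a member were at ranks 12472 and 12444 in the stage-2 lists and 12441 and 12272 in the stage-3 lists.

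The later rank of a member varied little with its stage-1 peaks. The 149 members with no stage-1 peak in the full lists had a median percentile of 52.2 at stage 2 and 64.6 at stage 3, the 240 members with a weaker peak in 1 list had 55.8 and 67.0, and the 80 members with a weaker peak in both had 55.9 and 69.0. The median change from stage 2 to stage 3 was 9.36, 8.48 and 6.94 points in the same order. The strongest member with no stage-1 peak in either full list lay at NW_018381463.1:12987-13637. It had percentiles of 89.4 and 77.4 at stage 2 and of 96.4 in both stage-3 lists, and all its pRNAi values were 94.8 or higher. The next, at NW_018374002.1:2734042-2735068, had 82.9 and 76.3 at stage 2 and 96.5 and 93.6 at stage 3. The third, at NW_018369356.1:117801-118923, had 85.6 and 76.9 at stage 2 and 84.4 and 94.7 at stage 3, and after pRNAi it ranked higher in the *fuchi* lists (87.2 and 83.9) than in the *Pt-hh* lists (64.3 and 30.2).

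The pRNAi lists were used to ask in which libraries the members kept a peak. For this, all stage-3 lists were cut to 10616 peaks, the length of the shortest of them. After *fuchi* pRNAi, 390 members (83.2%) had a peak in replicate 1 and 401 (85.5%) in replicate 2. After *Pt-hh* pRNAi, 395 (84.2%) had one in replicate 1 and 411 (87.6%) in replicate 2. The replicates of the groups overlapped, with means of 84.3% ± 1.66 and 85.9% ± 2.41 (SD, n = 2 each), a difference of −1.6 points (exact permutation test over the 4 libraries, two-sided, p = 0.667). With 2 libraries against 2, the smallest p this test can give is 0.333. Neither the sign nor the size of the difference was stable, as it ran from −9.99 to 0.862 points when libraries were left out in turn and was −8.21 points with line 39 as the only wild-type source and −20.8 points with all deposited peaks, where the lists differ in length. At the same list length the wild-type stage-3 lists, which the rule used, had peaks at 435 (92.8%) and 444 (94.7%) of the members.

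The mean percentile over the members, with 0 for a member without a peak, was 50.7 and 52.2 in the *fuchi* pRNAi replicates and 53.3 and 55.0 in the *Pt-hh* pRNAi replicates. The *fuchi* values were both lower, by an average difference of −2.73 points (51.4 ± 0.996 against 54.2 ± 1.23, SD, n = 2 each), and the exact permutation p of 0.333 is the smallest possible. This difference was −8.91 points without stage 2 replicate 2 and −24.1 points with all deposited peaks, where the lists differ in length. It turned to 1.13 points without stage 1 replicate 1. Among members with a peak, the median percentile was 64.1 and 65.9 for *fuchi* and 69.9 and 68.8 for *Pt-hh*.

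A peak was present in all 4 pRNAi lists at 321 members (68.4%), against 57% over the 7915 wild-type stage-3 regions. No peak was found in either *fuchi* pRNAi list at 31 members (6.61%), where the background share was 14%, and in either *Pt-hh* pRNAi list at 39 members (8.32%), where it was 8.35%. The *fuchi* share depended on the libraries and lists used, and ran from 3.54% without stage 1 replicate 1 through 12.9% without stage 2 replicate 2 (background 14%) to 21.8% with line 39 as the only wild-type source (background 29.4%). With all deposited peaks it was 14.3%, against a background of 14.6% at that setting. The *Pt-hh* share was 4.95% without stage 1 replicate 1 (background 8.36%), 9.67% without stage 2 replicate 1 (8.35%), 15.9% without stage 3 replicate 1 (29.5%), 12.5% without stage 3 replicate 2 (22.7%) and 17.2% with line 39 alone (22.7%). By combination, 12 members (2.56%, background 4.03%) had no peak in any pRNAi list. A further 13 (2.77%, background 5.51%) had no *fuchi* peak but peaks in both *Pt-hh* lists, and 11 (2.35%, background 1.53%) had no *Pt-hh* peak but peaks in both *fuchi* lists. In the full lists, whose lengths differ between the groups, 22 members (4.69%, background 10.9%) had no *fuchi* pRNAi peak and 4 (0.853%, background 1.17%) no *Pt-hh* pRNAi peak.

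Members had a peak more often than the regions with peaks only at stage 3 in every pRNAi list. Of the latter, 43.0% and 56.6% had a peak after *fuchi* pRNAi and 71.9% and 70.2% after *Pt-hh* pRNAi, and 575 of the 1727 (33.3%) had none in either *fuchi* list. The share of members with a peak exceeded that of these regions by 40.1 and 28.9 points in the *fuchi* pRNAi replicates and by 12.3 and 17.4 points in the *Pt-hh* pRNAi replicates. It was higher in 4 of 4 libraries, by 24.7 ± 12.4 points (mean ± SD over the *fuchi* and *Pt-hh* libraries together). The exact sign-flip permutation p of 0.125 (two-sided) is the smallest that 4 libraries can give. The choice of the sets by their wild-type peaks favours this direction, so nothing is read from the p. The gap averaged 34.5 ± 7.92 points in the *fuchi* libraries and 14.9 ± 3.6 points in those of *Pt-hh* (SD, n = 2 each), a difference of 19.7 points (exact permutation p = 0.333, the smallest possible). This second test was chosen after the shares had been seen. The gap difference depended on the stage-2 libraries that define the sets, being 8.32 points without stage 2 replicate 2 and 5.55 with line 39 as the only wild-type source.

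Members also ranked higher than regions with peaks only at stage 3 in the wild type, and in the wild-type stage-3 lists at the same length the latter had a peak at 85.5% and 83.0%, against 92.8% and 94.7% of the members. With both sets compared within 4 bands of the wild-type stage-3 percentile, the gap was 31.8 and 16.8 points in the *fuchi* pRNAi replicates and 1.95 and 8.03 points in the *Pt-hh* pRNAi replicates. In the band from 50 to 75, 86.1% and 91.1% of 180 members had a peak after *fuchi* pRNAi, against 48.0% and 69.1% of 492 regions with peaks only at stage 3. After *Pt-hh* pRNAi the same band gave 89.4% and 95% against 85.0% and 82.7%. In the lowest band, which held 27 members, 70.4% had a peak in each *fuchi* list, and 28.7% and 35.7% of the regions with peaks only at stage 3 did.

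**Figure D4:**
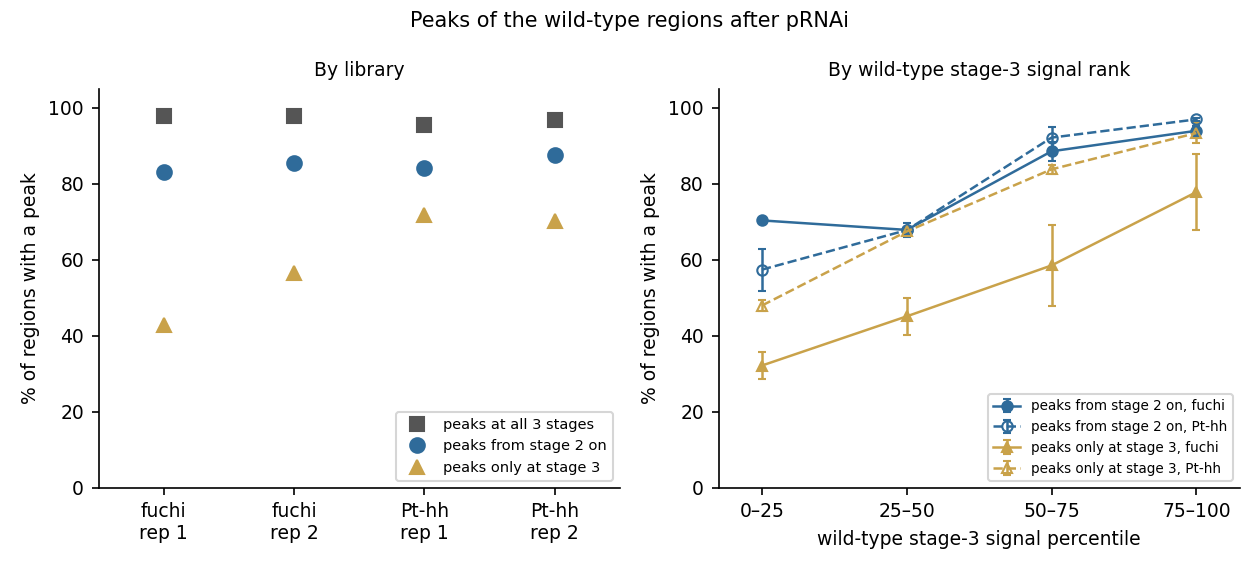
Left, percentage of regions with a peak in each pRNAi list of 10616 peaks for the regions with peaks at all 3 stages (1216), from stage 2 on (469) and only at stage 3 (1727). Right, the same percentage by band of wild-type stage-3 percentile, as the mean of the 2 replicates with bars reaching to each replicate. After *fuchi* pRNAi the stage-3-only regions are at 43.0% and 56.6% and the members at 83.2% and 85.5%.

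Set beside the regions with peaks at all 3 stages, the members held a middle place. The mean percentile, with 0 for no peak, differed between *fuchi* and *Pt-hh* pRNAi by 9.98 points at the regions with peaks at all 3 stages, where the *fuchi* lists were higher. It differed by −2.73 points at the members and by −12.8 points at the regions with peaks only at stage 3. In each of the 3 sets both *fuchi* values lay on the same side of both *Pt-hh* values (exact permutation p = 0.333 each, the smallest possible). Lists of equal length give ranks that sum to the same total, so that a higher rank of some regions lowers that of others. Counted by region, both *fuchi* percentiles were below both *Pt-hh* percentiles at 115 members (24.5%, background 25.1%) and above them at 65 (13.9%, background 18.7%). Among the regions with peaks at all 3 stages, 627 (51.6%) were above, and among those with peaks only at stage 3, 546 (31.6%) were below.

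The members with a change in wild-type rank were picked for their stage-3 values, so that those that rose were bound to rank high in other stage-3 lists and those that fell to rank low, and their values after pRNAi are given as a description. Median percentiles over each set are given with 0 for a member without a peak. The 147 members with both stage-3 values higher had 70.4 and 73.2 in the *fuchi* lists and 78.9 and 77.2 in the *Pt-hh* lists. The 66 members with both stage-3 values lower had 41.7 and 37.4 in the *fuchi* lists and 27.6 and 26.8 in the *Pt-hh* lists. Of the 66, 7 (10.6%) had no *fuchi* peak and 13 (19.7%) no *Pt-hh* peak. Of the 147, 6 (4.08%) had no *fuchi* peak and 3 (2.04%) no *Pt-hh* peak. The background shares were 14% for *fuchi* and 8.35% for *Pt-hh*. Across the 469 members, the *fuchi* minus *Pt-hh* percentile and the stage-3 minus stage-2 percentile had a Spearman's rho of −0.24, and across the 1216 regions with peaks at all 3 stages −0.61. These are descriptions across regions that share their libraries.

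Of the 22 members with no peak in either full *fuchi* pRNAi list, 8 had a peak in both *Pt-hh* lists of equal length (1.71% of the members, background 4.07%), and the 5 with the highest stage-3 rank are given here. The first, at NW_018378926.1:3406046-3406890, had percentiles of 73.3 and 57.5 at stage 2, of 91.2 and 87.1 at stage 3, and of 80.6 and 92.5 after *Pt-hh* pRNAi. The second, a 2065-bp region at NW_018376213.1:6335495-6337559, had 63.1 and 40.2 at stage 2, 85.1 and 83.0 at stage 3, and 65.6 and 53.8 after *Pt-hh* pRNAi. These 5 were taken for their high stage-3 rank, and both stage-3 values were above both stage-2 values in each, while the replicates overlapped in the other 3 of the 8. The member at NW_018373657.1:3563219-3564251 moved most, from 5.02 and 46.4 to 68.7 and 80.0, with 84.0 and 53.5 after *Pt-hh* pRNAi. The other two lie in the genes *TBX20-like* and *pangolin*, described with the genes. In the opposite direction 1 member (0.213%) had no peak in either full *Pt-hh* list and a peak in both *fuchi* lists, a state found at 4 of the 7915 background regions. It lay at NW_018373115.1:1423268-1425374, with 78.1 and 0.688 at stage 2, 75.5 and 91.5 at stage 3, and 66.6 and 37.2 after *fuchi* pRNAi. The full *fuchi* lists held 10616 and 13677 peaks and the full *Pt-hh* lists 23045 and 19732, so that the counts of 8 and 1 cannot be compared. In the lists of equal length the corresponding counts were 13 (2.77%, background 5.51%) and 11 (2.35%, background 1.53%).

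Gene positions on the assembly of the files were available for 232 genes, those that the study's supplementary annotation placed beside peaks it had found to differ between its groups. This is a selected set, so that the direction of the members at these genes is no independent evidence, and the other 449 members could not be assigned to genes here. At 19 of the 232 genes, 20 members lay inside the gene or within 10 kb of it, 17 of them overlapping it. Both stage-3 percentiles were above both stage-2 percentiles at 11 of the 20 and below at 1. The shares were 31.3% above and 14.1% below over all members, and 22.8% and 22% over the 2567 regions with peaks at both stages. A peak was present in all 4 pRNAi lists at 17 of the 20 (85%, against 68.4% of all members and 57% of the background regions). The other 3 (15%, against 6.61% of all members and 14% of the background regions) had none in either *fuchi* list.

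Of the pathway and patterning lists, 24 genes had a position, and 3 of them had a member beside them, against 19 of all 232 positioned genes. Both positioned Wnt pathway genes did, too few to say anything of the pathway. *Wnt-16-like* (LOC107457243) encodes a secreted Wnt ligand, and a 643-bp member at NW_018377318.1:1553005-1553647 overlapped it. Its percentiles were 42.3 and 8.64 at stage 2, 77.3 and 87.4 at stage 3, 2.35 and 44.0 after *fuchi* pRNAi, and 83.3 and 81.8 after *Pt-hh* pRNAi. Both *fuchi* values thus lay below both *Pt-hh* values. The pRNAi percentiles are ranks within 10616 peaks and the wild-type ones within 12494, so the pRNAi values are not placed against the wild-type stages. A weaker peak was present in both full stage-1 lists, at rank 17948 in replicate 1 and rank 14394 in replicate 2.

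*pangolin* (LOC107450033) encodes the TCF factor that turns Wnt signals into transcription in *Drosophila*, and it had 2 members on 1 scaffold. The one at NW_018371019.1:10475156-10476070 had 0.208 and 67.6 at stage 2 and 88.4 and 81.1 at stage 3, with 69.5 and 43.1 after *fuchi* pRNAi and 73.2 and 62.0 after *Pt-hh* pRNAi. The other, at NW_018371019.1:10555230-10555763, had 16.6 and 27.4 at stage 2, 47.2 and 52.3 at stage 3, no peak in either full *fuchi* pRNAi list, and 62.7 and 33.6 after *Pt-hh* pRNAi. The first of them had overlapping values after both knockdowns. *groucho-1-like* (LOC107445534), whose *Drosophila* counterpart is a co-repressor that binds TCF and Hairy-type factors, was outside the lists and is named after its values were seen. The member at NW_018370835.1:1286968-1287654 had 79.3 and 73.5 at stage 2, 95.9 and 83.6 at stage 3, 87.2 and 79.3 after *fuchi* pRNAi and 87.7 and 90.4 after *Pt-hh* pRNAi.

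Among the transcription factors, the listed *Meis1* (LOC107450063), a homeobox factor that works as a partner of Hox proteins, had a member at NW_018381183.1:1861391-1862004 with 41.0 and 47.9 at stage 2 and 84.6 and 50.9 at stage 3. Its pRNAi values overlapped, with 81.9 and 39.6 for *fuchi* and 78.0 and 77.2 for *Pt-hh*. The remaining genes were outside the lists and are given because they had members. The T-box gene *TBX20-like* (LOC107436847) had a member at NW_018369480.1:182213-182832 with 46.3 and 66.5 at stage 2, 87.3 and 80.0 at stage 3, no peak in either full *fuchi* pRNAi list, and 78.4 and 51.9 after *Pt-hh* pRNAi. T-box genes encode DNA-binding factors used widely in patterning. *TBX3* (LOC107453177) had a member at NW_018376834.1:13692462-13693032, within 10 kb, with 69.5 and 75.8 at stage 2, 89.1 and 82.0 at stage 3, 66.3 and 49.5 after *fuchi* pRNAi and 84.0 and 67.1 after *Pt-hh* pRNAi. Both *fuchi* values of *TBX3* were below both *Pt-hh* values by a margin of under 1 point at the closest pair.

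*adhesion G protein-coupled receptor L1-like* (LOC107437002), a latrophilin-type receptor, had a member at NW_018369794.1:3736616-3737228 with 43.0 and 61.5 at stage 2, 96.2 and 94.2 at stage 3 and at least 90.4 in every pRNAi list, and no stage-1 peak in either full list. *semaphorin-1A-like*, an axon guidance molecule in insects, and the *Dscam*-like gene, a cell adhesion molecule, had members whose stage-2 and stage-3 values overlapped. The member of *dendritic arbor reduction protein 1*, a zinc finger gene of the KLF family needed for dendrite growth in *Drosophila*, had 64.6 and 42.8 at stage 2 and 77.8 and 76.9 at stage 3. *tiptop-like*, a zinc finger gene related to *teashirt* in *Drosophila*, had 2 members, with mean stage-3 percentiles of 56.1 and 87.9, both with overlapping replicates. The single gene whose member was lower at stage 3 was the uncharacterized LOC110282818, with 88.4 and 81.0 at stage 2 and 52.8 and 54.0 at stage 3. After pRNAi it had 80.1 and 77.5 for *fuchi* and 49.8 and 17.6 for *Pt-hh*.

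**Figure D5:**
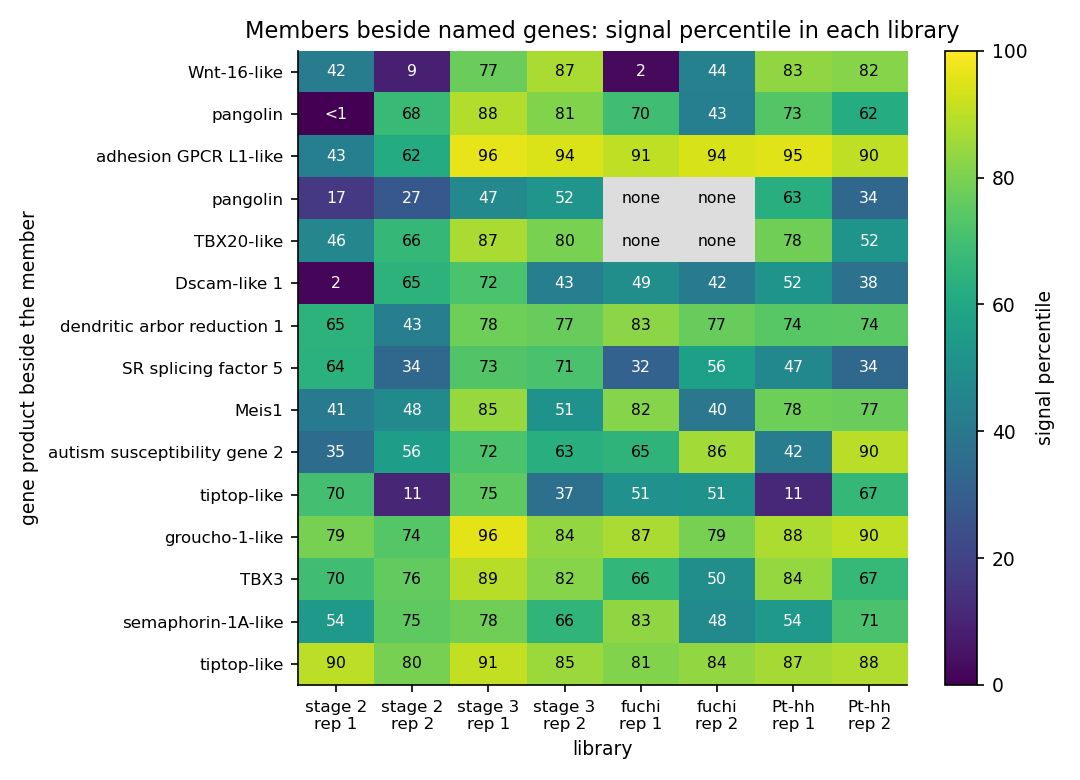
Signal percentile of the 15 members beside genes with a named product, in the stage-2, stage-3, *fuchi* pRNAi and *Pt-hh* pRNAi libraries, ordered by the change from stage 2 to stage 3. Grey cells marked none had no peak in the list of equal length, which occurred at *TBX20-like* and at 1 of the 2 *pangolin* members in both *fuchi* libraries.

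The other listed genes with a position had no member inside or within 10 kb. These included *Pt-hh* itself (LOC107451809) and a *patched-like* gene (LOC107440240) of the Hedgehog pathway, a *bone morphogenetic protein 4-like* gene (LOC107442925), the Notch ligand gene *delta-like protein 1* (LOC107456525), the GATA factor gene LOC107456131, the *u-shaped*-like zinc finger gene LOC107440842, a *hunchback-like* gene (LOC107455742) and *cyclin-E1* (LOC107455437). Of the patterning transcription factors, 1 of 10 positioned genes had a member, and of the histone and cell cycle genes 0 of 4. With 24 positioned genes, these counts say little about the pathways as wholes.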

How the data were processed

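ATAC-seq peak lists of 10 libraries were analysed, 2 for each of 5 groups that were taken from the labels. The authors used Trim Galore for trimming and Bowtie2 2.2.5 for alignment to Ptep_2.0, removed alignments of mapping quality under 30 and duplicates (Picard), and called peaks with Genrich 0.6 for each library without a control. The deposited signal is the authors' area of significance along a peak, and the deposited −log10 p-value is that of the summit. Summit offsets are the third deposited measurement.

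Lists were cut to equal length by signal (12494 for the wild type, 10616 among stage-3 lists), and peaks overlapping by at least 1 bp were merged (Python 3.11.15, numpy 2.4.6, pandas 2.3.3). A percentile is the rank within the cut list. Equal length hides a general gain or loss of peaks and does not equalise depth, which is unknown here. Counts of regions have no p-value. Values per library were compared by exact permutation tests with the libraries as units. The p gives the place of the observed difference among all arrangements and does not measure the spread between libraries. The class rules were tested on simulated data.

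Regions were named by a rule: the 6 of highest mean percentile, the 4 largest rises and the 4 largest falls without overlap of replicates, the 5 of highest stage-3 rank lacking peaks in both full lists of 1 knockdown and present in both lists of the other, the 3 highest with no stage-1 peak, and those within 10 kb of listed genes. The members and lists were chosen with earlier results of these data known. Of the 232 genes positioned from the study's supplementary annotation, 210 had their symbol in the RefSeq table. Alternatives were shorter lists (6247 and 5308 peaks), all deposited peaks, ranking by p-value, 50% overlap, 200 bp windows around summits, each replicate left out, and line 39 alone. Motifs and positions against promoters were not analysed here.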

Additional observations from a re-analysis of the deposited data

How the results depend on the processing

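Of 151 alternative values, 7 reversed, 32 moved beyond the limits set for counts and untested values, and 112 did neither, although for the tested differences this covers direction alone and their size moved several-fold. No call was lost, because no test in this design of 2 libraries a group could reach 0.05. With 1 library left out in turn, the number of members ran from 580 to 1356 against 469, the median change in percentile from stage 2 to stage 3 from 0.006 to 9.76 points against 8.5, and the share with a weaker stage-1 peak from 25.5% to 30.7% in replicate 1 and from 51.8% to 64.6% in replicate 2. The difference between *fuchi* and *Pt-hh* pRNAi ran from −9.99 to 0.862 points for the share of members with a peak (0.577 without stage 1 replicate 1, 0.862 without stage 3 replicate 1 and 0.107 without *Pt-hh* replicate 2) and from −8.91 to 1.13 points for the mean percentile (1.13 without stage 1 replicate 1). The count of members with no *fuchi* peak ran from 31 (6.61%, background 14%) to 175 (12.9%, background 14%). Their share ran from 3.54% without stage 1 replicate 1 (background 14.1%) to 16.8% without *fuchi* replicate 2 (background 28%). The count with no *Pt-hh* peak ran from 39 (8.32%, background 8.35%) to 97 (7.15%, background 8.33%). Their share ran from 4.95% without stage 1 replicate 1 (background 8.36%) to 15.9% without stage 3 replicate 1 (background 29.5%). The gap between members and regions with peaks only at stage 3 ran from 14.3 to 41.7 points, and its difference between the knockdowns from 8.32 to 25.3 points. Leaving out a list changes the rule itself, so the sets then differ in size.

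With lists of 6247 wild-type and 5308 stage-3 peaks there were 198 members, and 54% and 67.2% had a weaker stage-1 peak in replicates 1 and 2. Of these members, 8 (4.04%, background 14.5%) had no *fuchi* peak and 7 (3.54%, background 7.96%) no *Pt-hh* peak. With all deposited peaks, where the lists differ in length, the change in percentile was −4.42 points. There *fuchi* and *Pt-hh* pRNAi differed by −20.8 points in the share and −24.1 points in the mean percentile. At that setting 68 members (14.3%, background 14.6%) had no *fuchi* peak and 14 (2.94%, background 3.13%) no *Pt-hh* peak. With line 39 alone there were 2309 members, a change of −1.21 points and 23.1% with a weaker stage-1 replicate 1 peak. Of these members, 503 (21.8%, background 29.4%) had no *fuchi* peak and 397 (17.2%, background 22.7%) no *Pt-hh* peak. Windows of 200 bp gave 23.2% and 43.9% for the stage-1 shares. Absence from the full *Pt-hh* lists left 4 members (0.853%, background 1.17%). Within line 40 the share differed by 0.107 points. The causes of these shifts were not tested.

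With the replicate block, in which *fuchi* and *Pt-hh* libraries were swapped only within a replicate number, the differences of −1.6, −2.73 and 19.7 points each had an exact permutation p of 0.5, the smallest the block allows. The deviations of *fuchi* and *Pt-hh* replicate 1 from their group means had a weak negative correlation over the 7915 wild-type stage-3 regions (r = −0.2). The crossed pairing, chosen after seeing the data, made 0 calls, as did the block itself. Positions against promoters, motifs and the window alternative for them were not run.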
